A study of Rattus norvegicus with 119 samples.

Results

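P2rx7 and Camkk2 are close neighbours on the rat genome, and their RNA was followed in the hippocampus of young rats given lead in the diet. P2rx7 was chosen from its lead effect in Long Evans rats in earlier work on these data, and Camkk2 was added as its neighbour, so the Long Evans lead effect of both genes is given here as a description with no test. They are 2 of the 14506 genes that a probe set names alone, and each has 1 probe set, 10761992 for P2rx7 and 10758517 for Camkk2. Each animal's RNA was hybridised to its own Affymetrix Rat Gene 1.0 ST array. The animals were 40 Fischer, 40 Long Evans and 39 Sprague Dawley rats, males and females in each strain. The dams or pups ate control chow, or chow with lead acetate at 250 or 750 ppm. Perinatal exposure began when dams went on lead chow 10 days ahead of mating and stopped at weaning, while postnatal exposure covered birth to postnatal day 45. Every animal was on control chow at the end and was killed on postnatal day 55. This gave 30 groups of 4 animals, with 3 in the Sprague Dawley male controls. Litters and blood lead were not given in the sources used here, so the p-values measure the spread between these animals, some of which may be littermates. In whole hippocampus, fewer cells of a type and less RNA per cell cannot be told apart.

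P2rx7 encodes an ATP-gated cation channel that opens at high extracellular ATP. Its opening lets potassium out of the cell, which in microglia activates the NLRP3 inflammasome and the release of interleukin-1. In the brain P2rx7 has been placed mainly in microglia and in cells of the oligodendrocyte lineage. Camkk2 encodes a kinase switched on by calcium and calmodulin, which phosphorylates calmodulin kinases I and IV and AMP-activated protein kinase and is abundant in neurons.

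The stretch in front of P2rx7 is shown because the level of this transcript is what differed between exposed and control Long Evans rats. It is the 188 bases before the annotated start of the gene in RefSeq's GRCr8 annotation, at chr12:39594985-39595172 on the minus strand, read 5′ to 3′, with the GC box in capitals.
P2rx7: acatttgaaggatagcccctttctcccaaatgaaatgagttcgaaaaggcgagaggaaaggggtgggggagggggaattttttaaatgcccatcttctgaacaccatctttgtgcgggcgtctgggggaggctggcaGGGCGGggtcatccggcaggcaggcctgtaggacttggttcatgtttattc
Its GC content was 53.2%, against a median of 50.5% over 33469 promoter windows cut to the same length. Searched on both strands, the window held 1 GC box (GGGCGG), 51 bases before the gene start, and 22.2% of the windows hold that motif. It held no CCAAT (in 27.1% of windows), no TATAAA (9.47%), no CACGTG (3.84%) and neither core of the metal response element, TGCACNC (7.94%) and TGCGCNC (7.99%). These are matches of letters in 1 window of 1 reference animal and say nothing of binding. The array's own genome build was not given in the sources used here, so GRCr8 was used only for this window and for the order of genes.

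P2rx7 was higher in lead-exposed Long Evans rats than in their controls in both sexes, at both doses and in both exposure periods. All values are RMA log2 levels, where a difference of 1 is a doubling. The 4 male controls had P2rx7 levels of 8.17, 8.28, 8.19 and 8.18. The 4 female controls had 8.30, 8.50, 8.12 and 8.15. The female animal at 8.50 was the highest control, and the other 7 lay between 8.12 and 8.30. With perinatal lead at 250 ppm, P2rx7 was 8.88, 8.90, 8.85 and 8.49 in males. The females of that treatment had 8.64, 8.67, 8.71 and 8.71, the tightest group of the strain. All 8 animals lay above every control of their own sex. With postnatal lead at 250 ppm, males had 8.33, 8.89, 8.94 and 8.77. The females had 8.83, 9.03, 8.30 and 8.74. Here 1 animal of each sex was near the control level and the other 6 were at 8.74 or above. With perinatal lead at 750 ppm, males had 8.36, 8.50, 8.68 and 8.62. Females had 8.57, 8.99, 8.52 and 8.57. Every one of these 8 again lay above all controls of its sex. With postnatal lead at 750 ppm, males had 8.45, 8.72, 8.33 and 8.58, and females had 8.30, 8.47, 8.98 and 8.70. This treatment held the most overlap, with 4 of its 8 animals at or below the highest control of the strain.

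**Figure D1:**
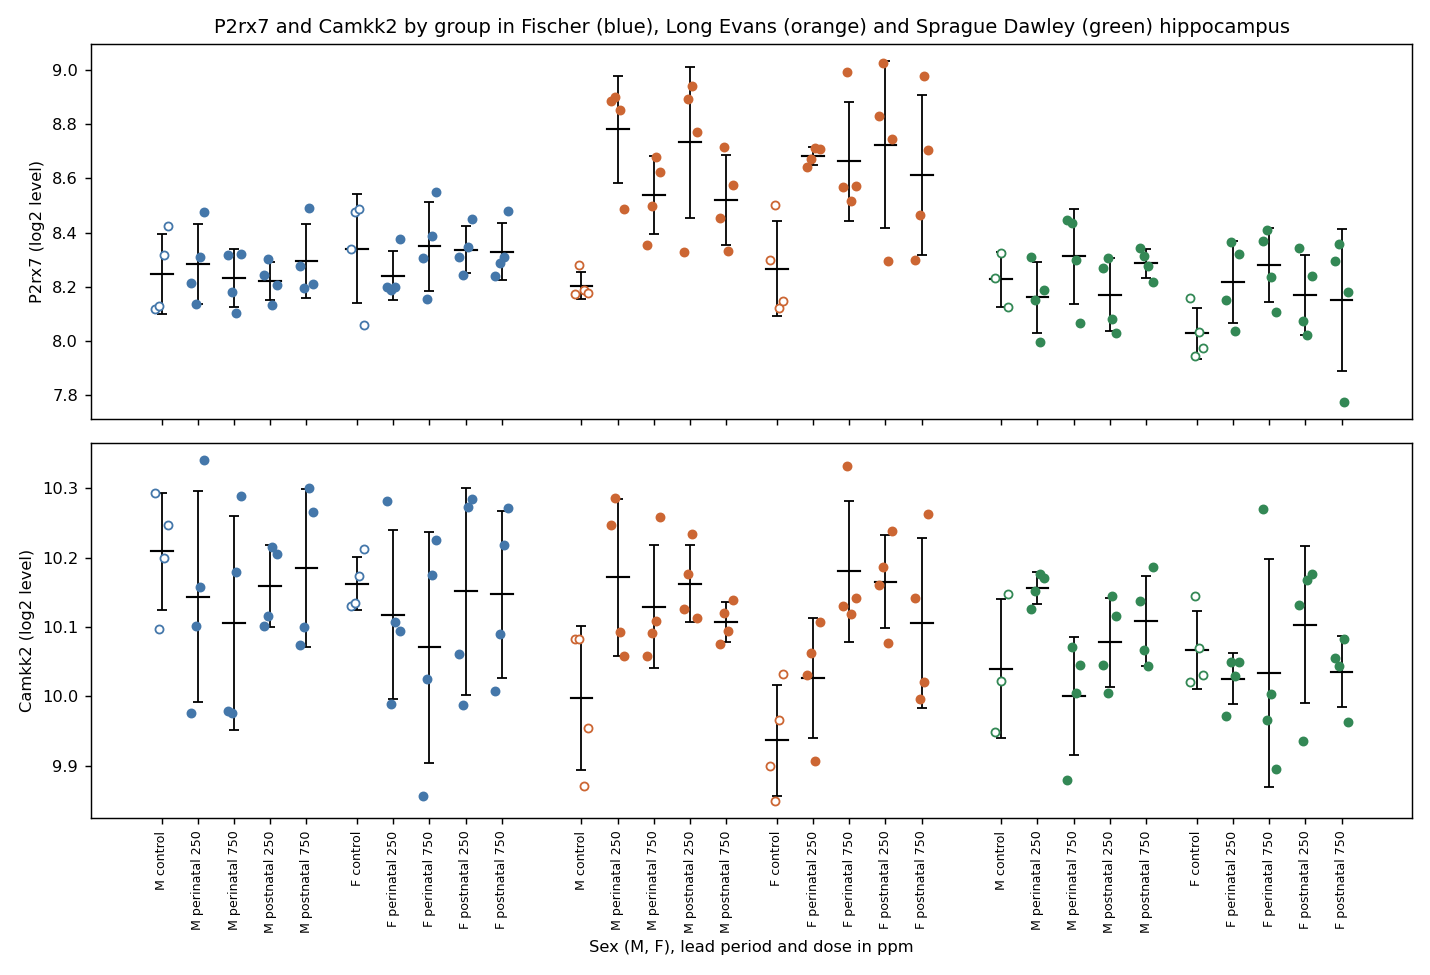
Log2 level of P2rx7 (top) and Camkk2 (bottom) in every animal, by strain, sex (M, F), exposure period and dose in ppm. Open points are controls, filled points are exposed animals, and the horizontal and vertical black bars are the group mean and SD. The 8 exposed Long Evans groups have the 8 highest P2rx7 means, from 8.52 to 8.78, while Camkk2 group means overlap between strains.

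Counted over the strain, 23 of 32 exposed Long Evans animals had more P2rx7 than the highest of the 8 controls, which was the case for at least 23 animals at 0.25% of all 29214 probe sets. Among males, all 16 exposed animals exceeded all 4 controls, a separation found at 0.0479% of probe sets. Among females, 13 of 16 exceeded all 4 controls, which 0.88% of probe sets matched or passed. In 6 of the 8 exposed groups no animal overlapped the controls of its sex, which 0.0308% of probe sets matched or passed. The probe set was chosen for this contrast, so these shares describe it and support nothing. The 9 exposed animals at or below the highest control came from 6 of the 8 groups and had P2rx7 levels of 8.30 to 8.50. The spread within groups was 0.22 (SD) in the 32 exposed animals and 0.13 in the 8 controls.

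The mean P2rx7 level was 8.66 over the exposed Long Evans groups and 8.24 over the controls, a difference of 0.42 ± 0.08 (SE). This was rank 24 of 29214 probe sets by size of increase. The 8 group differences ran from 0.31 to 0.58, each with an SE of 0.14. The smallest was in males with postnatal lead at 750 ppm and the largest in males with perinatal lead at 250 ppm. These contrasts share their controls within a sex and are therefore not independent. Across Long Evans as a whole, 51 probe sets (0.175%) were called higher and 11 (0.0377%) lower in the mean lead effect at a limma adjusted p under 0.05. Nothing is read from those shares for P2rx7 or Camkk2, whose contrast it is.

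Camkk2 was also higher in exposed Long Evans rats, by less. The male controls had 10.08, 10.08, 9.87 and 9.95 and the female controls 9.90, 9.85, 9.97 and 10.03. Exposed animals ran from 9.91 to 10.33 with a median of 10.12. Of the 32, 23 lay above the highest control, the same count as for P2rx7, which 0.25% of probe sets matched or passed. Camkk2 was free of overlap with the controls of the same sex in 3 of 8 groups, which 0.828% of probe sets matched or passed. Those groups were the males and females with postnatal lead at 250 ppm and the females with perinatal lead at 750 ppm. The mean was 10.13 in exposed groups and 9.97 in controls, a difference of 0.16 ± 0.04 (SE), rank 557 of 29214. The 8 group differences ran from 0.09 to 0.24 with an SE of 0.06. The smallest was in females with perinatal lead at 250 ppm, where P2rx7 was 0.42 above its controls. The order of the groups was thus not the same in the neighbours. With these SEs and shared controls neither order is certain, and the orders were not tested.

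The arrays differ in ways the groups do not explain, and both members were followed through them. In 3 Long Evans and 5 Sprague Dawley arrays, X-linked genes lay nearer the median of the opposite sex than that of the labelled sex. This held for Eif2s3 and for the mean of Ddx3x and Pbdc1, within strain and within the label-number sets described below. Whether these arrays are mislabelled was not tested. The 3 Long Evans arrays are all controls. Without them the Long Evans difference was 0.39 ± 0.10 for P2rx7 and 0.15 ± 0.05 for Camkk2. Each group carries a run of numbers at the end of its sample labels, called label numbers here, and the labels do not say what they number. The lower and the upper numbers of a run were also taken apart. Within the lower numbers the P2rx7 difference was 0.34 ± 0.10, with 10 of 16 exposed animals above all 4 controls, a count that 5.18% of probe sets matched or passed. Within the upper numbers it was 0.50 ± 0.08, with 16 of 16 above the 4 controls, as at 0.0719% of probe sets. The corresponding Camkk2 differences were 0.16 ± 0.04 and 0.17 ± 0.06. The numbers of all 8 Long Evans controls follow one another, from 1970 to 1977. The next numbers, 1978 to 1981, are females with perinatal lead at 750 ppm, whose P2rx7 levels were 8.52 to 8.99. The other 7 exposed groups carry numbers from 2821 to 3447, and the part that such runs play was not tested. Choroid plexus markers differed between animals more than any other list, with a mean level over 9 probe sets of 6.70 to 10.84 in Long Evans controls and 6.91 to 11.03 in exposed animals. With that level as a covariate the P2rx7 difference was 0.42 ± 0.08.

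In Fischer rats neither gene differed between exposed and control animals in the limma test. P2rx7 was 8.12, 8.13, 8.32 and 8.42 in male controls and 8.34, 8.48, 8.49 and 8.06 in female controls. The 32 exposed animals ran from 8.10 to 8.55 with a median of 8.28, inside nearly the same range. The mean difference was -0.01 ± 0.05 (SE, limma adjusted p = 1), with a 95% interval from -0.11 to 0.10. Camkk2 ran from 10.10 to 10.29 in the 8 controls and from 9.86 to 10.34 in the exposed animals. Its difference was -0.05 ± 0.05 (limma adjusted p = 1), with an interval from -0.15 to 0.05, and all 8 exposed groups had a mean below that of their controls. Within the lower label numbers the Camkk2 difference was -0.12 ± 0.06 and within the upper 0.02 ± 0.04 (limma adjusted p = 0.9997 and 0.9999). No probe set (0%) was called in the lead effect over all Fischer animals, and 729 had an unadjusted limma p under 0.05.

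In Sprague Dawley rats P2rx7 differences were positive in all 4 female groups and mixed in males, and the strain mean was not called. P2rx7 was 8.23, 8.33 and 8.12 in the 3 male controls. It was 8.16, 7.95, 8.03 and 7.97 in the 4 female controls, the lowest mean (8.03) of all 30 groups. The exposed animals ran from 7.995 to 8.45 in males and from 7.78 to 8.41 in females. In females 10 of 16 exposed animals lay above all 4 controls, which 2.79% of probe sets matched or passed. In males, exposed animals lay both above and below the range of the 3 controls. The 4 female group differences were 0.12 to 0.25 (SE 0.10) and the 4 male differences -0.07 to 0.08 (SE 0.11). The difference between the sexes was not tested. The mean over both sexes was 0.09 ± 0.06 (SE, limma adjusted p = 0.999) with a 95% interval from -0.03 to 0.22. Of all probe sets, 0.0171% were called in that contrast. Within the lower label numbers the P2rx7 difference was 0.17 ± 0.07 (limma adjusted p = 0.60). There 13 of 16 exposed animals lay above all 3 controls, which 2.69% of probe sets matched or passed. Within the upper numbers the P2rx7 difference was 0.02 ± 0.08 (limma adjusted p = 0.996), with none of 16 above all 4 controls. Camkk2 differed by 0.01 ± 0.04 (limma adjusted p = 0.999), with an interval from -0.06 to 0.09. Without the 5 arrays with X-linked levels nearer the opposite sex, the differences were 0.07 ± 0.06 and 0.03 ± 0.04, again not called.

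**Figure D2:**
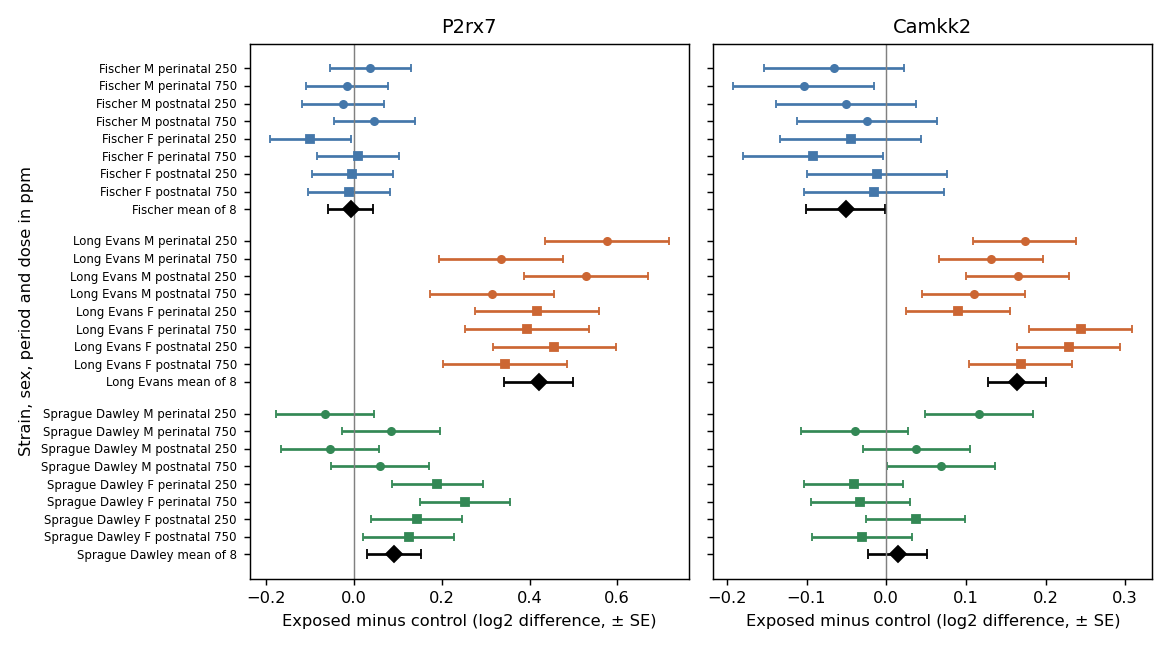
Exposed minus control difference (log2, horizontal axis) of P2rx7 and Camkk2 in each of the 24 exposed groups against the controls of the same strain and sex, and the mean of the 8 groups of a strain (black diamonds). Circles are males, squares are females and bars are standard errors. All 8 Long Evans differences of both genes are above 0, and the strain means for P2rx7 are -0.01 in Fischer, 0.42 in Long Evans and 0.09 in Sprague Dawley.

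Set side by side, the Long Evans lead effect exceeded that of Fischer by 0.43 ± 0.09 for P2rx7 and by 0.22 ± 0.06 for Camkk2. It exceeded that of Sprague Dawley by 0.33 ± 0.10 and 0.15 ± 0.06. These values include the contrast that chose P2rx7 and carry no test. The one strain difference that could be tested, Fischer minus Sprague Dawley, was -0.10 ± 0.10 for P2rx7 and -0.07 ± 0.06 for Camkk2 (limma adjusted p = 0.9997 for both).

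Exposure period made no difference that passed the test. In Long Evans, P2rx7 averaged 8.65 in postnatal and 8.67 in perinatal groups, a difference of -0.02 ± 0.07 (limma adjusted p = 0.93), with a 95% interval from -0.16 to 0.12. Camkk2 differed by 0.01 ± 0.03 (limma adjusted p = 0.94). The period differences of P2rx7 in Fischer and Sprague Dawley were 0.02 ± 0.05 and -0.05 ± 0.05, and those of Camkk2 were 0.05 ± 0.04 and 0.03 ± 0.03, none of them called. The period contrast called 0.00342% of probe sets in Fischer, 0.065% in Long Evans and 0.0411% in Sprague Dawley.

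Dose also gave no call for either gene, and the higher dose did not carry the higher P2rx7 level in Long Evans. P2rx7 averaged 8.58 at 750 ppm and 8.73 at 250 ppm there, a difference of -0.15 ± 0.07. Its unadjusted limma p was 0.044 and its adjusted p 0.70. At 250 ppm the exposed animals ran from 8.30 to 9.03 and at 750 ppm from 8.30 to 8.99, so both doses covered almost the same range. In Sprague Dawley the same contrast was 0.08 ± 0.05 (limma adjusted p = 1), and in Fischer 0.03 ± 0.05 (limma adjusted p = 0.9998). For Camkk2 the dose contrast was not called in any strain, with -0.001 ± 0.03 in Long Evans, -0.02 ± 0.04 in Fischer and -0.05 ± 0.03 in Sprague Dawley. The dose contrast called 0.0719% of probe sets in Fischer, 0.0548% in Long Evans and 0.00342% in Sprague Dawley.

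Sex gave no call for either gene in any strain. The female minus male difference of P2rx7 was 0.06 ± 0.04 in Fischer, 0.03 ± 0.06 in Long Evans and -0.06 ± 0.05 in Sprague Dawley (limma adjusted p = 0.89, 0.82 and 0.65). For Camkk2 it was -0.03 ± 0.04, -0.03 ± 0.03 and -0.02 ± 0.03 (limma adjusted p = 0.9999, 0.62 and 0.77). The sex contrast called 0.0822%, 0.0856% and 0.0171% of probe sets in the 3 strains.

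Ordered by mean P2rx7 level, the 8 exposed Long Evans groups took places 1 to 8, from 8.78 to 8.52. The 250 ppm groups held places 1 to 4. The next group, Fischer females with perinatal lead at 750 ppm, was at 8.35, which left a gap of 0.17. That was the one gap between neighbours as large as the pooled SD of single animals within groups (0.17). The other 28 of 29 gaps were smaller, and the one before the last group, Sprague Dawley female controls, was 0.12. Differences between neighbours in the order were not tested. The Long Evans controls stood at places 18 (females, 8.27) and 25 (males, 8.20), among the Fischer and Sprague Dawley groups. For Camkk2 the order ran from 10.21 in Fischer male controls to 9.94 in Long Evans female controls, and no gap reached the pooled SD of 0.10. The Long Evans controls were the 2 lowest of the 30 groups for Camkk2, and exposed Long Evans groups stood at places 3 to 26.

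Among animals without lead, Fischer controls exceeded Sprague Dawley controls by 0.13 ± 0.05 in Camkk2 (limma adjusted p = 0.095) and by 0.17 ± 0.09 in P2rx7 (limma adjusted p = 0.22). Neither was called, in a contrast that called 10.5% of probe sets. Long Evans controls, described only, were lower than Fischer by 0.06 ± 0.08 in P2rx7 and by 0.22 ± 0.05 in Camkk2. Against Sprague Dawley controls they differed by 0.11 ± 0.09 in P2rx7 and by -0.09 ± 0.05 in Camkk2.

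Array by array, P2rx7 and Camkk2 correlated positively over all Long Evans and all Fischer animals and weakly negatively over all Sprague Dawley animals, while among the controls alone r was below 0 in each strain. In the 40 Long Evans animals Pearson's r was 0.58 and Spearman's rho 0.59, both descriptions that contain the lead effect of both genes. Once each group's mean was subtracted, r was 0.33 and rho 0.32, and without the 2 animals farthest from the median r was 0.27. In the 32 exposed animals r was 0.42, and in the 8 controls -0.47. With the group mean subtracted, r was 0.45 within the lower and 0.15 within the upper label numbers. Camkk2 was rank 580 among the probe sets that name a single gene by its r with P2rx7 in these animals. The 40 Fischer animals gave r = 0.31 and rho = 0.32 (permutation p = 0.051 and 0.047, adjusted p = 0.10 for both over 8 p-values). With group means subtracted, r was 0.38 and rho 0.42 (permutation p = 0.015 and 0.0068, adjusted p = 0.061 and 0.054). Without the 2 farthest animals this r was 0.41. Within the lower label numbers it was -0.20 and within the upper numbers 0.43, so the Fischer relation did not hold within both. On the log2 values r was 0.43 in the 32 exposed Fischer animals and -0.21 in the 8 controls. Both genes were higher in the upper numbers of that strain, Camkk2 by 0.15 and P2rx7 by 0.09. With the mean of group and number set subtracted, a step chosen after seeing the data, r was 0.12. In 39 Sprague Dawley animals r was -0.15 and rho -0.15 (permutation p = 0.38 and 0.37, adjusted p = 0.43 for both). With group means subtracted r was -0.08 (permutation p = 0.62, adjusted p = 0.62) and rho -0.17 (permutation p = 0.29, adjusted p = 0.43), and without the 2 farthest animals r was -0.002. Within the lower label numbers it was 0.12 and within the upper numbers -0.39. On the log2 values r was -0.11 in the 32 exposed Sprague Dawley animals and -0.55 in the 7 controls. After further quantile normalization r was -0.33 on the log2 values and -0.29 with group means subtracted. All arrays of a strain share the RMA scale, and the points share group, strain and number run. The permutations moved values across the groups of a strain. The p-values for values with group means subtracted therefore tend to be too small.

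**Figure D3:**
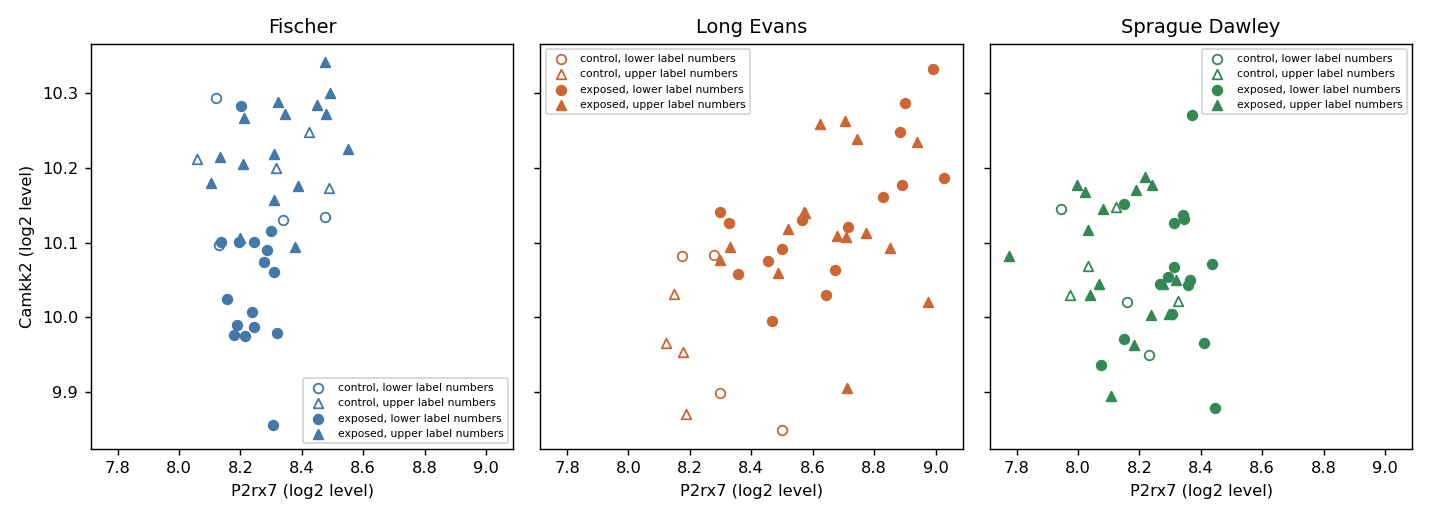
Camkk2 against P2rx7 (both log2 level), 1 point per animal, in 40 Fischer, 40 Long Evans and 39 Sprague Dawley rats. Open symbols are controls, filled symbols are exposed animals, circles are the lower and triangles the upper label numbers of each group. Pearson's r over these values is 0.31, 0.58 and -0.15.

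None of the 11 measured genes around P2rx7 and Camkk2 was called in the Long Evans lead effect, which called few probe sets. Of all probe sets, 0.175% were called higher and 0.0377% lower, and P2rx7 and Camkk2 carry no test there. In the GRCr8 order 5 annotated genes lie between Camkk2 and P2rx7, of which 1 codes for protein. That is P2rx4, the gene of another ATP-gated channel of the same family. Its level in exposed Long Evans rats was lower than in controls by 0.07 (difference -0.07 ± 0.04, limma adjusted p = 0.68). P2rx4 ran from 8.25 to 8.48 in the 8 controls and from 8.13 to 8.49 in the exposed animals. Array by array, P2rx7 and P2rx4 had r = -0.41 in Long Evans, or -0.28 with group means subtracted. With group means subtracted it was -0.17 in Fischer and 0.05 in Sprague Dawley. Over the 11 genes such r values with P2rx7 ran from -0.33 to 0.45 in Fischer and from -0.48 to 0.25 in Long Evans. In Sprague Dawley they ran from -0.47 to 0.41. Those of Camkk2 were 0.38, 0.33 and -0.08 in the same order of strains. Within 10 gene positions on either side, 11 other genes had a probe set of their own. None of the 11 was called by limma in the lead effect of any strain, beside 0% of all probe sets in Fischer and 0.0171% in Sprague Dawley. At such shares a lack of calls among 11 genes says nothing of the locus. In Long Evans 2 of them had an unadjusted p under 0.05, as did 7.45% of all probe sets, and their differences ran from -0.20 to 0.08 with a median of 0.001. The lowest was Orai1, a pore subunit of store-operated calcium channels, with -0.20 ± 0.05 (limma adjusted p = 0.14). The highest was Rnf34, a ubiquitin ligase gene, with 0.08 ± 0.03 (limma adjusted p = 0.21). Ift81, next to P2rx7 on its other side, differed by 0.02 ± 0.04, and Anapc5, next to Camkk2, by -0.06 ± 0.03. Atp2a2, the calcium pump of the endoplasmic reticulum, differed by 0.001 ± 0.03. Between Fischer and Sprague Dawley controls, 3 of the 11 were called, all higher in Fischer, in a contrast that called 10.5% of all probe sets. P2rx4 differed by 0.40 ± 0.05 (limma adjusted p = 3.2e-09), Vps29 by 0.30 ± 0.05 (2.7e-05) and Orai1 by 0.23 ± 0.06 (0.0024).

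**Figure D4:**
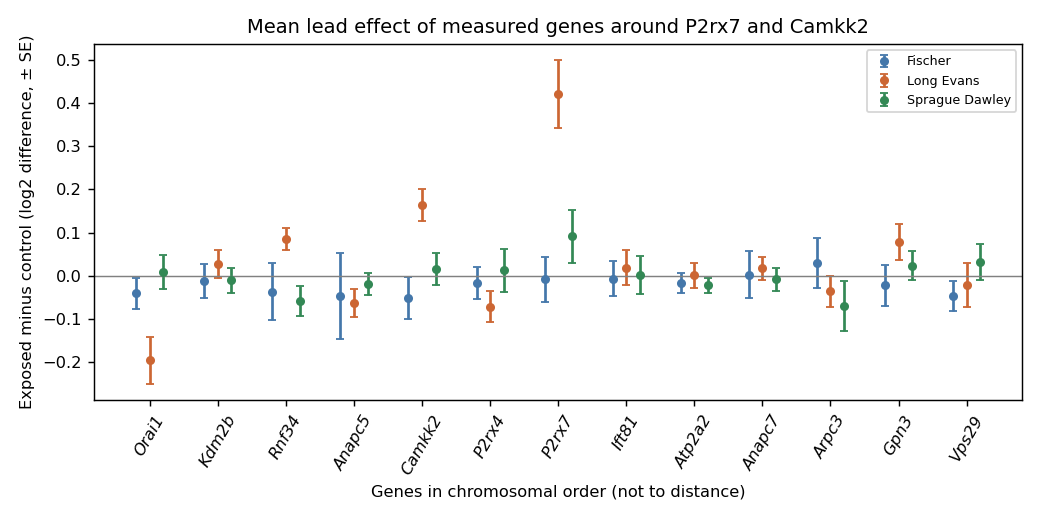
Mean lead effect (exposed minus control, log2 difference, bars are SE) of P2rx7, Camkk2 and the 11 other measured genes around them, in chromosomal order and not to distance, in Fischer, Long Evans and Sprague Dawley. In Long Evans P2rx7 (0.42) and Camkk2 (0.16) are the highest, with P2rx4 between them at -0.07 and Orai1 lowest at -0.20.

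The lists of genes that act with P2rx7 and Camkk2 held no call in any strain's lead effect by limma, where few probe sets were called. Of all probe sets, 0% were called in Fischer and 0.0171% in Sprague Dawley. In Long Evans 0.175% were called higher and 0.0377% lower. At such shares a lack of calls says nothing of these lists. In the Long Evans contrast 2177 of all 29214 probe sets (7.45%) had an unadjusted p under 0.05, and the counts of each list stand beside that share. Of the other P2X receptors, 6 of 6 were measured, and in Long Evans 1 had an unadjusted p under 0.05. Their Long Evans median was 0.03, against 0.001 over all probe sets, and P2rx5 was highest with 0.13 ± 0.05 (limma adjusted p = 0.32). P2Y and adenosine receptors (11 probe sets) had a median of 0.006 with no unadjusted p under 0.05. Among 18 probe sets for ATP release and breakdown, 4 had an unadjusted p under 0.05 and the median was 0.005. Panx1, a channel that releases ATP, differed by -0.03 ± 0.04 (limma adjusted p = 0.98). Alpl, a phosphatase that can strip phosphates from ATP, was lowest with -0.18 ± 0.05 (limma adjusted p = 0.11). Downstream of P2rx7, 18 probe sets for the inflammasome and interleukin-1 had a median of 0.006, and 2 had an unadjusted p under 0.05. Il1b differed by -0.08 ± 0.06 (limma adjusted p = 0.86), and Nlrp3 was not analysed here. For Camkk2, 26 probe sets for its substrates and the AMP-activated kinase had a median of 0.004, with 2 at an unadjusted p under 0.05. Camkk1, the sister kinase, differed by 0.01 ± 0.03 (limma adjusted p = 0.99) and Prkaa2, a catalytic subunit of the AMP-activated kinase, by -0.05 ± 0.03 (limma adjusted p = 0.82). In Fischer and Sprague Dawley these 5 lists held no call, and their medians lay between -0.03 and 0.01. P2rx5 and Alpl were named after their values were seen.

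Among the cell type markers, those of the oligodendrocyte lineage were also higher in exposed Long Evans rats. In Long Evans 5 of 12 probe sets for mature oligodendrocytes were called higher by limma, beside 0.175% of all probe sets, and all 12 differences were positive with a median of 0.18. Cldn11, a tight junction gene of myelin, rose by 0.21 ± 0.04 (limma adjusted p = 0.0058). Mog and Mag, genes of myelin surface proteins, rose by 0.26 ± 0.06 and 0.21 ± 0.05, and Fa2h, an enzyme of myelin lipids, by 0.25 ± 0.06 (limma adjusted p = 0.045, 0.045 and 0.047). Mbp, the myelin basic protein gene, had 2 probe sets at 0.03 ± 0.03 and 0.10 ± 0.05, neither called. Of 6 precursor and lineage probe sets all differences were positive with a median of 0.12, and Gpr17, a receptor of cells about to myelinate, rose by 0.21 ± 0.04 (limma adjusted p = 0.0071). These myelin genes were known from earlier results on the same animals and are no independent evidence. Only Cldn11 and Gpr17, of the 6 called (Cnp, a myelin enzyme gene, is the other), kept their call whichever of the 40 animals was left out. None of the 6 was called without the 3 control arrays nearer the opposite sex, where their differences were 0.19 to 0.31 (limma adjusted p = 0.074 to 0.26). Nor was any called within the lower or the upper label numbers alone. With the label-number set as a block Fa2h was no longer called (0.25, limma adjusted p = 0.051). After further quantile normalization Fa2h and Cnp were not called (limma adjusted p = 0.054 and 0.067).

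The mean level over the mature oligodendrocyte list ran from 10.87 to 10.998 in Long Evans controls and from 10.90 to 11.34 in exposed animals. For the precursor list it ran from 9.49 to 9.66 in controls and from 9.62 to 9.88 in exposed animals. Of 12 microglia probe sets, 0 were called by limma, 2 had an unadjusted p under 0.05, and their mean level ran from 8.60 to 8.83 in controls and from 8.61 to 8.83 in exposed animals. The microglia gene Aif1 differed by 0.01 ± 0.05. Other lists held no call in Long Evans, beside 0.175% of all probe sets called higher and 0.0377% called lower. Choroid plexus markers were lower at all 9 probe sets (median -0.37, 0 with an unadjusted p under 0.05). Astrocyte markers were higher at all 7 (median 0.02, 2 with an unadjusted p under 0.05), and meningeal markers at 5 of 8 (median 0.10, 1 with an unadjusted p under 0.05). Neuronal markers were higher at 5 of 8 (median 0.005) and endothelial markers at 5 of 6 (median 0.04), none with an unadjusted p under 0.05. With group means subtracted, P2rx7 had a positive r with the mature oligodendrocyte level in every strain, 0.51 in Fischer, 0.48 in Long Evans and 0.63 in Sprague Dawley. Its r with the precursor level was 0.34, 0.57 and 0.54, and with the microglia level -0.38, -0.04 and -0.14. Other lists reached like values in some strains. The astrocyte level gave r = 0.43 in Fischer, 0.08 in Long Evans and 0.61 in Sprague Dawley. The level of the Camkk2 and AMP-activated kinase list gave 0.46, -0.07 and 0.63, and the neuronal level 0.18, 0.01 and 0.50. Differences between these r values were not tested. In Fischer the mature list was lower in exposed animals at all 12 probe sets (median -0.08, none called by limma, 3 with an unadjusted p under 0.05, beside 2.5% of all probe sets). In Sprague Dawley it was higher at 11 of 12 (median 0.05, none called, 3 with an unadjusted p under 0.05, beside 3.64% of all probe sets). With the mature oligodendrocyte level as a covariate, chosen after seeing the data, the Long Evans difference was 0.26 ± 0.09 for P2rx7 and 0.12 ± 0.04 for Camkk2. With the precursor level it was 0.17 ± 0.09 and 0.09 ± 0.05. What part the oligodendrocyte lineage plays in the P2rx7 difference was not tested.

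**Figure D5:**
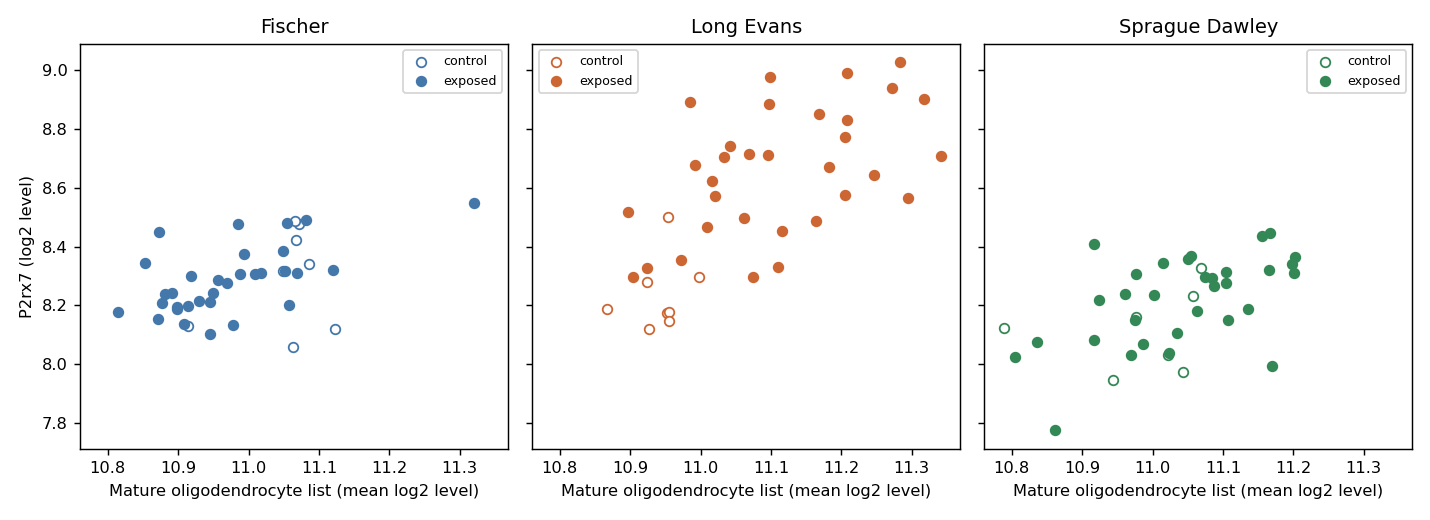
P2rx7 (log2 level) against the mean log2 level of 12 probe sets of mature oligodendrocyte markers, 1 point per animal, in Fischer, Long Evans and Sprague Dawley. Open points are controls and filled points exposed animals. On the marker axis the highest exposed animals stand at 11.34 in Long Evans, 11.32 in Fischer and 11.20 in Sprague Dawley. The highest controls stand at 10.998, 11.12 and 11.07 in the same order of strains.

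The genes whose levels followed P2rx7 most closely over the arrays of all strains, with group means subtracted, were Rffl (r = 0.62), Hapln2 (0.62), Cpm (0.58), Pip4k2a (0.58) and Kcna6 (0.57). Hapln2 encodes a matrix linker at the nodes of myelinated fibres. Their r with P2rx7 was above 0.40 in each strain, and in the Long Evans lead effect they differed by 0.07 to 0.11, none of them called by limma. The lowest r values were those of Emilin1 (-0.45), Calhm5 (-0.44) and Il36b (-0.44). In the 40 Long Evans arrays alone the closest were Slc44a1 (0.72), a choline transporter, Sox10 (0.71), the transcription factor that drives the oligodendrocyte programme, Plekhh1 (0.69), Pim3 (0.65) and Pllp (0.65), a myelin membrane protein gene. In the same order their r was 0.15, -0.23, 0.20, -0.14 and -0.15 in Fischer. In Sprague Dawley it was 0.21, 0.32, 0.47, -0.58 and -0.09. With the mean of group and label-number set subtracted instead, Oxsr1 (0.56), Tmem163 (0.55) and Snx6 (0.54) came first.

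Camkk2 had other companions. Over the arrays of all strains they were Arpc1a (0.66), Fem1a (0.65), Rab11fip4 (0.64), Gps1 (0.64) and Rps19 (0.63), with Ube2q1 (-0.60), Alg3 (-0.57) and Slc20a2 (-0.56) at the other end. For Arpc1a r was 0.81 in Fischer, 0.46 in Long Evans and 0.49 in Sprague Dawley. With the mean of group and label-number set subtracted, Syt7 (0.57) and Wdtc1 (0.54) came first. In Long Evans alone Cacng4 (0.61), Rcan3 (0.61), C1galt1 (0.61), Csf1r (0.60) and Nfic (0.58) were closest. In the same order their r was 0.47, -0.19, 0.61, 0.73 and -0.65 in Fischer. In Sprague Dawley it was 0.11, 0.01, 0.55, -0.14 and 0.52. P2rx7 was rank 2881 by its r with Camkk2 over all arrays, and Camkk2 rank 1995 by its r with P2rx7 (r = 0.22). These are correlations over arrays that share scale and label runs, given without a test.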

How the data were processed

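The authors deposited 1 log2 intensity for each probe set and array, and the submitters' processing notes name RMA and Partek; versions, annotation and any batch correction were not given in the sources used here. They covered 29214 probe sets on the arrays of 40 Fischer, 40 Long Evans and 39 Sprague Dawley rats, with array medians from 7.36 to 7.57, and were used as deposited. Of the probe sets, 15310 carried 1 gene symbol alone. Groups came from the labels.

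Group means were fitted per strain with limma 3.58.1 in R 4.3.3 (data.table, version 1.17.8), all 10 groups of a strain sharing one spread. The mean lead effect is the mean of the 8 exposed groups, each minus the controls of its sex. Control strains were compared in 1 fit of 30 groups. P-values are two-sided and adjusted by Benjamini-Hochberg over all probe sets, with calls at 0.05; the contrasts were tested on simulated data. Correlation p-values used 100000 permutations over the arrays of a strain, without regard to group (scipy 1.17.1). Figures used matplotlib 3.10.9. The number of arrays limits the precision. P2rx7, Camkk2 and the gene lists were chosen with earlier results of these data known. Named genes were both members, the measured genes within 10 positions, the 5 highest and 3 lowest correlations over all arrays and the 5 highest in Long Evans, up to 4 called members per list, and Panx1, P2rx4, Il1b, Camkk1, Prkaa2, Aif1 and Mbp whatever their result. Alternatives were an all-array fit, further quantile normalization, a filter at the 40th percentile, array weights and choroid plexus level as covariate. Others took label-number sets, left out arrays with X-linked levels nearer the opposite sex, or left out each array in turn. Oligodendrocyte covariates and the number-set means were added after seeing the data.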

Additional observations from a re-analysis of the deposited data

Results flagged for a closer look

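Of 58 groups of 4 animals (29 for each gene), 5 held an animal far from the other 3 by Dixon's criterion, which chance alone gives for about 1 group in 20. P2rx7 in replicate 4 of the Fischer females with perinatal lead at 250 ppm was 8.38, with the others at 8.19 to 8.20. P2rx7 in replicate 2 of the Long Evans male controls was 8.28, with the others at 8.17 to 8.19. P2rx7 in replicate 4 of the Long Evans males with perinatal lead at 250 ppm was 8.49, below the others at 8.85 to 8.90. Replicate 2 of the Long Evans females with perinatal lead at 750 ppm was high in both genes, with P2rx7 at 8.99 (others 8.52 to 8.57) and Camkk2 at 10.33 (others 10.12 to 10.14).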

How the results depend on the processing

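Over 51 alternatives the Long Evans difference stayed above 0 for both genes, from 0.17 to 0.50 for P2rx7 and from 0.09 to 0.18 for Camkk2, and the lowest P2rx7 value, 0.17, came with the oligodendrocyte precursor level as a covariate. No alternative brought a member past the threshold in the lead, period, dose or sex contrasts where these were tested. The Fischer minus Sprague Dawley difference of P2rx7 controls was called with the precursor level as a covariate (0.28 ± 0.08, limma adjusted p = 0.010), against adjusted p-values up to 0.84 over its 25 alternatives; the cause was not tested. The number of probe sets called in the Long Evans lead effect moved most. It was 62 as reported, 118 in 1 fit of all arrays, 104 with array weights and 15 without arrays nearer the opposite sex. Within the lower and the upper label numbers it was 2 and 3 (fewer arrays). The mature and precursor oligodendrocyte levels as covariates gave 8 and 5. With 1 array left out it was 25 to 75, lowest without replicate 2 of the Long Evans male controls. In Sprague Dawley the count was 5 as reported, 8 in 1 fit of all arrays, 3 above the 40th percentile and 10 with array weights. Within the lower and the upper numbers it was 0 and 2. It was 3 without arrays nearer the opposite sex, and 2 to 7 with 1 array left out. The Fischer count was 0 throughout. No paired analysis was run, because the labels give no pairing and no label number occurs in more than 1 group. With the label-number set as a block the Long Evans differences were 0.42 ± 0.08 and 0.16 ± 0.04. Signal over background was not given.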
